A study of Arabidopsis thaliana with 24 samples.

Results

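This report is about the difference between the flg22 responses of 35S::ERF104 and erf104 leaves of Arabidopsis thaliana: for each probe set, the log2 change from water to flg22 in 35S::ERF104 minus the same change in erf104. The contrast uses 11 of the 24 arrays of the series and 22746 of the 22810 probe sets, all but the 64 controls. 35S::ERF104 plants express the ethylene response factor ERF104 from the cauliflower mosaic virus 35S promoter, which is active in most cells, and erf104 plants carry a knockout of that gene. Leaves of 6-week-old plants were infiltrated with flg22, at 1 µM per the series text, or with water, and were collected 4 h later. The 4 groups were 35S::ERF104 flg22 (3 arrays), 35S::ERF104 water (3 arrays), erf104 flg22 (2 arrays, replicates 1 and 3) and erf104 water (3 arrays). Wild-type Col-0 plants and mpk6 plants, which carry a knockout of MPK6, had the same age and treatments (3 arrays per group). These 12 arrays serve to choose flg22-responsive genes and, in 1 alternative fit of 23 arrays, to estimate the spread. No wild-type array enters the contrast, so it sets excess of the factor against its loss and does not show how either line differs from Col-0. In the authors' table of group values the 35S::ERF104 columns carry the word Strep in their headings, and the sample labels describe no tag. The labels do not say whether the arrays of a group came from separate plants, so p-values measure the spread between these arrays only.

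The peptide flg22 is a stretch of bacterial flagellin that the receptor kinase FLS2 and its partner BAK1 recognise at the cell surface. Recognition starts a burst of reactive oxygen, MAP kinase cascades that include MPK3 and MPK6, ethylene production and a broad change of transcription. ERF104 is a transcription factor of the ERF family and a substrate of MPK6, and ERF factors bind GCC-box promoters such as those of plant defensin genes. The comparison asks which parts of the flg22 response depend on how much ERF104 the leaf holds.

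Among the 11 arrays, correlations of log2 signals across probe sets were 0.874 to 0.93 within groups and 0.836 to 0.916 between groups. Median signals were 132.5 to 158 scaled units. The erf104 flg22 replicate 2 array was left out because it correlated with the other arrays of these lines at only 0.224 to 0.238, and the authors' own mean of that group lay within 0.1% of the mean of replicates 1 and 3 for 86.1% of probe sets, against 0.11% for the mean of all 3. Leaf mesophyll markers were bright in every group, with 4 of 7 marker genes measured. Their summed signal was 73430 to 87800 in 35S::ERF104 flg22, 120100 to 144300 in 35S::ERF104 water, 75460 to 76560 in erf104 flg22 and 79500 to 210000 in erf104 water. The erf104 water arrays were the most unlike each other by that sum, and the part this spread plays in the results was not tested. Root and flower markers were near the detection limit, with 1 to 3 of 9 called present or marginal on some array of a group.

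The signals of ERF104 (AT5G61600) matched the genotypes. They were 29057, 21442 and 29306 in 35S::ERF104 flg22 and 26917, 23344 and 30769 in 35S::ERF104 water. In erf104 they were 8.26 and 10.9 under flg22 and 51.5, 18.6 and 29.7 under water, and every array of both erf104 groups was called absent. All 35S::ERF104 arrays were above all erf104 arrays. The group means of log2 signal were at least 741-fold apart under flg22 and at least 515-fold under water when each erf104 signal is raised to the lowest signal on its array among probe sets called present throughout the group. The fitted difference of responses for ERF104 was 1.66 ± 0.42 (SE, log2) and did not pass (adjusted p = 0.59, limma). It rests on erf104 signals below detection.

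Both lines answered flg22 broadly and mostly in the same direction. With limma and an adjusted p under 0.05, 1474 probe sets rose in 35S::ERF104 (6.48% of all tested) and 2060 fell (9.06%), while 1487 rose in erf104 (6.54%) and 1917 fell (8.43%). The split between rises and falls depends on the scaling. With each array centred on its median signal, 54.3% of the calls in 35S::ERF104 and 54.7% of those in erf104 were rises, against 41.7% and 43.7% as deposited, because centring moved the median over all probe sets up to 0.02 and 0.04, compared with -0.11 and -0.08. Calls in both lines numbered 2246, which is 63.6% of the 35S::ERF104 calls and 66% of the erf104 calls. Of these, 957 rose in both lines, 1287 fell in both and 2 had opposite signs, 1 of which was called absent in all 4 groups. Another 1288 probe sets passed in 35S::ERF104 alone, and 1184 of them had the same sign in erf104. Likewise 1158 passed in erf104 alone, of which 1026 had the same sign in 35S::ERF104. Signs agreed for 15451 of all 22746 probe sets and for 9776 of the 12639 called present or marginal on some array in each group. The difference of responses had an unadjusted p under 0.05 for 258 of the 1288 and 420 of the 1158, against 6.59% of all. Passing in 1 line alone favours such a difference, so these counts are descriptions. The 2 responses share no array, and across the 12639 probe sets called present or marginal on some array in each of the 4 groups their Pearson correlation was 0.809, and over all 22746 probe sets it was 0.382, as descriptions over probe sets. Single arrays weighed on these counts: erf104 calls numbered 1488 without its flg22 replicate 3, and adding the left-out array gave 167 calls in 35S::ERF104 and 366 in erf104.

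**Figure D1:**
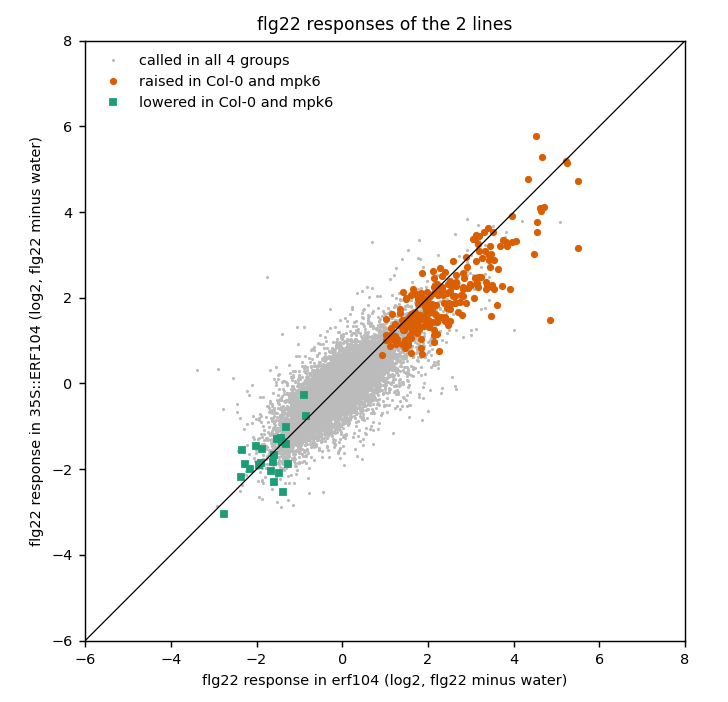
Each point is a probe set, with its log2 flg22 response in 35S::ERF104 (vertical axis) against that in erf104 (horizontal axis); the line marks equal responses. Orange circles are 224 probe sets that rose and green squares 23 that fell in both Col-0 and mpk6, and 174 of the 224 circles lie below the line.

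The difference between the responses passed the adjusted threshold for 1 of 22746 probe sets (0.0044%). At an unadjusted p under 0.05 there were 1499 (6.59%), of which 741 had the larger response in 35S::ERF104 (3.26%) and 758 the smaller (3.33%). The median 95% interval of the difference had a half-width of 0.724 log2 units over the probe sets seen in all 4 groups and of 3.49 over the 6736 called absent in all 4. Gene groups are therefore described at the unadjusted p, beside these background shares. The number past the adjusted threshold was 0 to 3 when single arrays were left out, with 3 without erf104 water replicate 1 and 3 without erf104 water replicate 3.

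The probe set that passed is named rps12.1 in the authors' table, a name used for protein S12 of the small organellar ribosomal subunit. Its signals were 482, 416 and 614 in 35S::ERF104 flg22 and 1220, 1088 and 1019 in 35S::ERF104 water, against 749 and 543 in erf104 flg22 and 322, 303 and 222 in erf104 water. The flg22 arrays lay below all water arrays in 35S::ERF104 and above all water arrays in erf104. The response was -1.15 ± 0.20 in 35S::ERF104 and 1.19 ± 0.23 in erf104, and the difference was -2.35 ± 0.30 (SE, log2; adjusted p = 0.0336, limma). The lines differed under water, by 1.99 ± 0.20 (35S::ERF104 minus erf104, adjusted p = 0.000244), and not past the threshold under flg22, by -0.36 ± 0.23. The call for rps12.1 was lost in 8 of 11 fits that left out 1 array, with adjusted p-values from 0.0592 to 0.247, and it held without erf104 water replicate 1 or 3 or 35S::ERF104 flg22 replicate 3. The difference itself lay between -2.58 and -2.11 in all 11 fits. The call was also lost in 8 of 12 other alternatives.

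**Figure D2:**
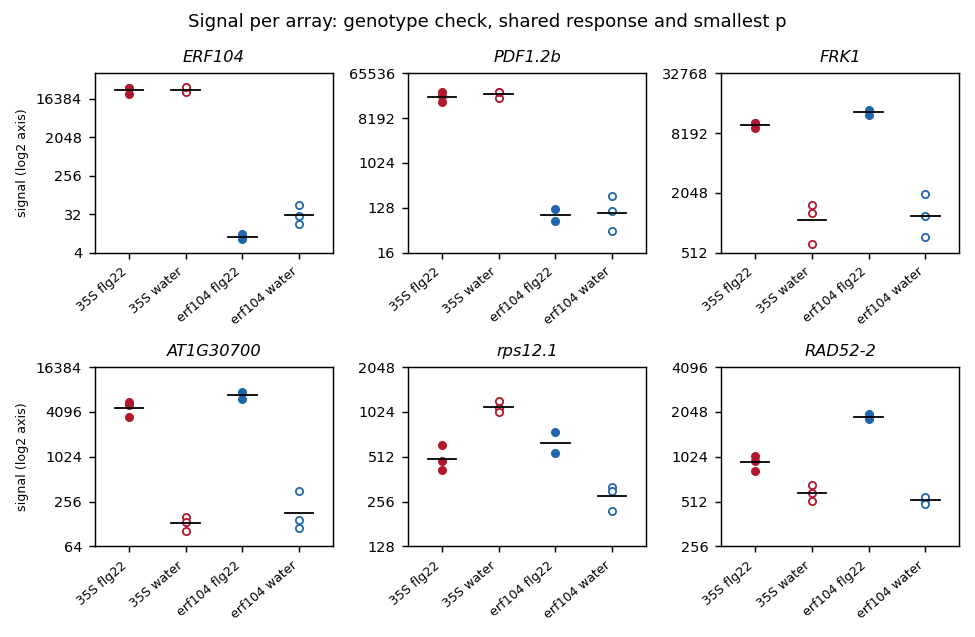
Signal per array on a log2 axis for 6 genes, with filled circles for flg22, open circles for water, red for 35S::ERF104 (left) and blue for erf104 (right); bars are means of log2 signals over 3 arrays (2 in erf104 flg22). ERF104 and PDF1.2b separate by line, FRK1 and AT1G30700 by treatment, and rps12.1 moves in opposite directions in the lines.

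FRK1 (AT2G19190), a receptor kinase widely used to read out flg22 perception, rose in both lines. Its signals were 9226, 10245 and 10432 in 35S::ERF104 flg22 and 625, 1290 and 1560 in 35S::ERF104 water, against 12452 and 14100 in erf104 flg22 and 1207, 739 and 1977 in erf104 water. All flg22 arrays lay above all water arrays in each line. The response was 9.22-fold in 35S::ERF104 and 10.97-fold in erf104, and the difference was -0.25 log2 units with a 95% interval of -1.30 to 0.80. The berberine-bridge-enzyme-like gene AT1G30700 rose 35.3-fold in 35S::ERF104 and 37.75-fold in erf104, with a difference of -0.10 (interval -1.16 to 0.97). CBP60G, a calmodulin-binding activator of salicylic acid synthesis, rose by 3.64 and 3.40 log2 units, and PROPEP3, a precursor of danger peptides, by 4.97 and 4.54, in 35S::ERF104 and in erf104. These 3 genes were named after their values were seen. An interval of this width does not show that responses were equal.

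The 18 measured genes of pattern receptors and early kinases rose in most cases, 10 in 35S::ERF104 and 15 in erf104, and none fell. BAK1, the co-receptor of FLS2, rose by 1.09 in 35S::ERF104 and by 1.54 in erf104. CERK1, the chitin co-receptor, rose by 1.44 and 2.04 in the same order of lines. The difference was negative for 14 of the 18, with a list median of -0.28 against -0.04 over all probe sets. At an unadjusted p under 0.05 there were 2 members (11.1%, against 6.59% of all probe sets). These were RBOHF and BSK1, a kinase that associates with FLS2. RBOHF, an NADPH oxidase, had signals of 150, 152 and 165 in 35S::ERF104 flg22 and 195, 182 and 122 in 35S::ERF104 water, against 433 and 577 in erf104 flg22 and 283, 169 and 210 in erf104 water. Its arrays overlapped between treatments in 35S::ERF104 and did not in erf104, and the difference was -1.28 ± 0.41 (SE; adjusted p = 0.64). The median of the receptor list was -0.60 without erf104 water replicate 3, where 8 members had an unadjusted p under 0.05, and -0.16 without erf104 water replicate 1. With the left-out array added it was 0.43 and no member had one.

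Among danger peptides and ubiquitin ligases, 8 of 13 rose in each line. PUB22 and PUB23, ubiquitin ligases that dampen immune signalling, rose by 2.87 and 3.22 in 35S::ERF104 and by 3.54 and 3.85 in erf104. The list's median difference was -0.02 (-0.60 without erf104 flg22 replicate 1, 0.16 without 35S::ERF104 water replicate 2). PHI-1, a phosphate-induced gene, was its sole member at an unadjusted p under 0.05 (7.69%, near the 6.59% of all probe sets). Of 14 genes of the MAP kinase cascade 5 rose in each line, with a median difference of 0.02 (-0.16 without erf104 flg22 replicate 1, 0.47 with the left-out array added). MPK6 itself rose in erf104 (1.06, adjusted p = 0.0015) and changed by 0.49 in 35S::ERF104 (adjusted p = 0.067), and the difference of -0.57 did not pass. The MAP kinase kinase gene MKK4 rose in 35S::ERF104 (1.41) and changed by 0.60 in erf104 without passing, and the difference of 0.81 did not pass. Of 21 WRKY transcription factor genes, 10 rose in 35S::ERF104 and 12 in erf104, and WRKY22 rose by 2.47 and 3.09. The difference was negative for 17 of them, the median was -0.55 (-0.24 without erf104 flg22 replicate 3), and none had an unadjusted p under 0.05. WRKY33, needed for camalexin synthesis, changed by 1.68 in 35S::ERF104 and 1.86 in erf104, with overlapping arrays and adjusted p-values of 0.071 and 0.075.

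The endoplasmic reticulum chaperones, which fold receptors and secreted defence proteins, rose in both lines. All 12 measured members rose in 35S::ERF104 and 11 in erf104, the exception being ERDJ3A (1.77, adjusted p = 0.054). The list's median response was 1.01 in 35S::ERF104 and 1.06 in erf104, and the median difference was -0.06. For 9 of the 12 the 95% interval lay within 2-fold in both directions. That held for 5950 of the 12639 probe sets seen in all 4 groups and for 5983 of all 22746. The median difference of the chaperones ranged from -0.18 to 0.10 without single arrays, and it was 0.63, with 2 of 12 negative, when the left-out erf104 flg22 array was added. ERDJ3B, a chaperone needed for the receptor EFR, had signals of 7857, 7516 and 9057 in 35S::ERF104 flg22 and 3430, 4627 and 3174 in 35S::ERF104 water, against 8302 and 8670 in erf104 flg22 and 3775, 4198 and 4535 in erf104 water. Its flg22 arrays were above its water arrays in each line, and the difference was 0.11 (interval -0.44 to 0.65).

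To see how genes chosen without these arrays behaved, probe sets were taken that changed more than 3-fold in the same direction in both Col-0 and mpk6, from 12 arrays outside the contrast. All 224 that rose there had a positive response in both lines, and 218 passed in 35S::ERF104 and 221 in erf104. Their median response was 1.89 in 35S::ERF104 and 2.18 in erf104. The difference was negative for 174 and positive for 50, with a median of -0.34 and an interquartile range of -0.66 to -0.02. At an unadjusted p under 0.05 there were 33 negative and 1 positive, against 3.33% and 3.26% of all probe sets, and none passed the adjusted threshold. The median difference between the lines was 0.15 under water and -0.17 under flg22 (35S::ERF104 minus erf104). Of the 23 that fell in Col-0 and mpk6, 21 fell in 35S::ERF104 and 20 in erf104, with medians of -1.84 and -1.60, and the difference was positive for 14 and negative for 9. The median of the 224 lay between -0.58 and -0.20 over the other alternatives, and it was 0.39, with 62 negative, when the left-out erf104 flg22 array was added. The 33 negative members at an unadjusted p under 0.05 became 84 without erf104 water replicate 3, 13 in the fit of 23 arrays and 3 with the left-out array.

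The most negative differences among the responsive genes belonged to PRX52, a class III peroxidase, to AT2G45220, to AT4G36430, to 4CL5 and to TAT3. PRX52 had signals of 103, 159 and 156 in 35S::ERF104 flg22 and 51.1, 71.8 and 31.2 in 35S::ERF104 water, against 1202 and 633 in erf104 flg22 and 5.88, 90.2 and 53 in erf104 water. It was called absent on all 35S::ERF104 water arrays, and its difference was -3.35 ± 1.14 (SE; adjusted p = 0.65). TAT3, a tyrosine aminotransferase induced by jasmonate, rose 4.59-fold in 35S::ERF104 and 15.01-fold in erf104. The most positive belonged to AT2G36690, AT5G44810, XBAT34, AT2G44370 and, among genes that fell, COR413IM1. AT2G36690, an oxygenase-family gene, had signals of 4466, 4702 and 6341 in 35S::ERF104 flg22 and 86.4, 62.9 and 147 in 35S::ERF104 water, against 2081 and 2559 in erf104 flg22 and 121, 85.8 and 96.1 in erf104 water. It rose 55-fold in 35S::ERF104 and 23.1-fold in erf104, and the difference of 1.25 ± 0.40 did not pass (adjusted p = 0.63).

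**Figure D3:**
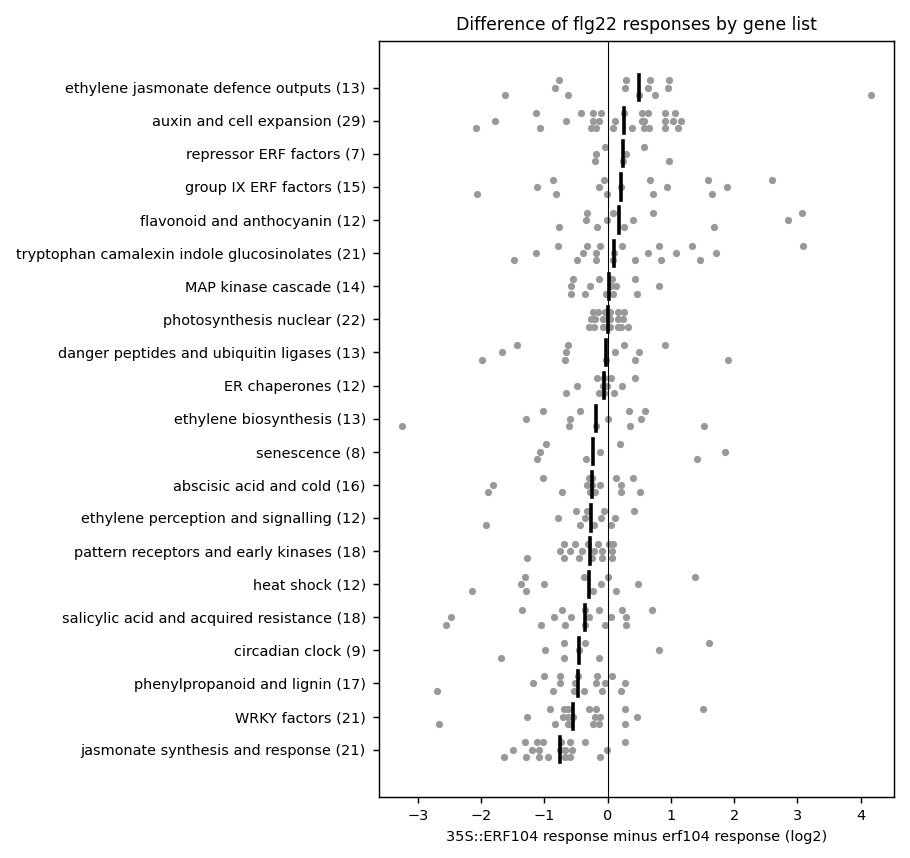
Each grey point is a gene of the named list (number measured in parentheses), at its difference of flg22 responses, 35S::ERF104 minus erf104, in log2 units; the black bar is the list median. The jasmonate list lies furthest to the left, with 20 of 21 genes below 0, and the endoplasmic reticulum chaperones and nuclear photosynthesis genes cluster near 0.

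Jasmonate genes showed the lowest list median. Jasmonate is a wound and defence hormone: COI1 perceives its conjugate, JAZ proteins repress the pathway and are among its own early targets, and MYC2 is the main transcription factor they hold back. The difference was negative for 20 of 21 measured genes, against 11977 of all 22746 probe sets, and the median was -0.75. In that direction 9 had an unadjusted p under 0.05, namely JAZ5, JAZ10, JAZ8, JAZ2, JAZ6, JAZ9, LOX3, MYC2 and JAZ3. That is 42.9% of the list, against 3.33% of all probe sets. None had an unadjusted p under 0.05 in the other direction, and none passed the adjusted threshold. In 35S::ERF104 LOX3 rose and MYC2, JAZ3 and JAZ9 fell, while in erf104 LOX3, AOC3, JAZ1, JAZ2, JAZ6 and JAZ10 rose and none fell. The genes named by their unadjusted p were chosen after their values were seen. With the left-out erf104 flg22 array added, the list median was -0.03, 11 of 21 were negative and 1 had an unadjusted p under 0.05, and over the other alternatives the median lay between -0.90 and -0.62 with 4 to 13 such members.

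JAZ10 (AT5G13220) had signals of 205, 180 and 197 in 35S::ERF104 flg22 and 244, 257 and 174 in 35S::ERF104 water, against 633 and 655 in erf104 flg22 and 263, 258 and 268 in erf104 water. Both erf104 flg22 arrays stood above every other array, and the 35S::ERF104 groups overlapped. The response was -0.20 ± 0.21 in 35S::ERF104 and 1.29 ± 0.23 in erf104, and the difference was -1.49 ± 0.31 (SE, log2; adjusted p = 0.496). The lines differed under flg22 by -1.73 (adjusted p = 0.00166) and under water by -0.24, which did not pass.

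JAZ2 showed opposite signs, with 847, 589 and 671 in 35S::ERF104 flg22 and 915, 1117 and 858 in 35S::ERF104 water, against 1209 and 1130 in erf104 flg22 and 677, 724 and 888 in erf104 water. The flg22 arrays lay below the water arrays in 35S::ERF104 and above them in erf104. The rise in erf104 passed (0.62, adjusted p = 0.0404) and the change in 35S::ERF104 did not (-0.46, adjusted p = 0.0905). JAZ9 fell in 35S::ERF104, with 1178, 605 and 802 under flg22 and 1486, 1843 and 1298 under water. In erf104 it had 2096 and 1984 under flg22 and 1724, 1981 and 1835 under water, a change of 0.15.

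LOX3, a lipoxygenase of jasmonate synthesis, rose in both lines. Its signals were 1316, 1925 and 2169 in 35S::ERF104 flg22 and 792, 909 and 377 in 35S::ERF104 water, against 5838 and 3946 in erf104 flg22 and 901, 841 and 1020 in erf104 water. The rise was 2.73-fold in 35S::ERF104 and 5.23-fold in erf104, and the difference of -0.94 ± 0.42 did not pass (adjusted p = 0.74). COI1 and JAR1, the receptor and the conjugating enzyme, passed in neither line.

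**Figure D4:**
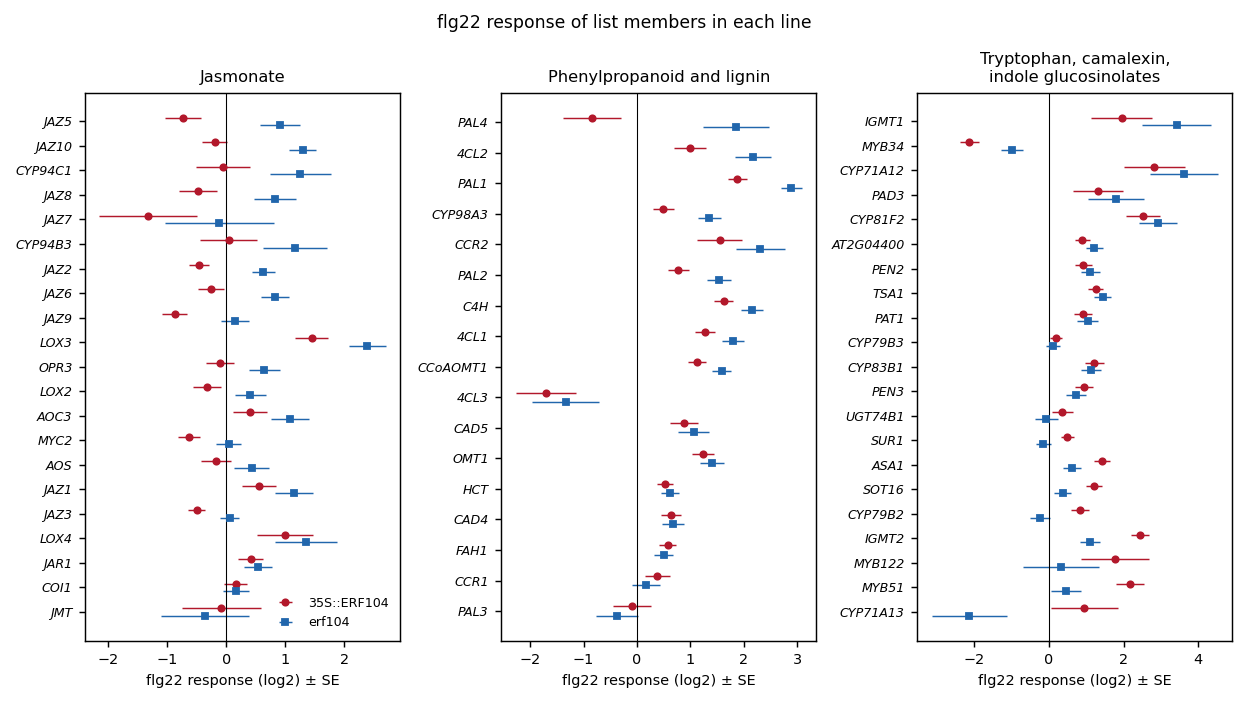
log2 flg22 response ± SE of each measured member of 3 lists, with red circles for 35S::ERF104 and blue squares for erf104, ordered by the difference between them. Most jasmonate and phenylpropanoid genes have the circle to the left of the square, while MYB51, IGMT2, CYP79B2, SOT16, ASA1 and SUR1 have it to the right.

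Phenylpropanoid genes, whose enzymes turn phenylalanine into lignin and other phenolics, rose in both lines, 12 of 17 in each and with none falling. The difference was negative for 14 of 17 with a median of -0.46. The median was -0.34 over the 224 probe sets that rose in Col-0 and mpk6, from which list members were not removed. The medians of the receptor, WRKY and jasmonate lists were -0.28, -0.55 and -0.75. In the phenylpropanoid list 5 genes had an unadjusted p under 0.05, all negative: PAL4, 4CL2, PAL1, CYP98A3 and PAL2. That is 29.4% of the list, against 6.59% of all probe sets. PAL1, the entry enzyme, had signals of 11470, 10362 and 13047 in 35S::ERF104 flg22 and 2891, 3731 and 2885 in 35S::ERF104 water, against 15894 and 17429 in erf104 flg22 and 2022, 2035 and 2731 in erf104 water. Flg22 and water arrays did not overlap in either line. The rise was 3.68-fold in 35S::ERF104 and 7.43-fold in erf104, and the difference was -1.01 ± 0.26 (SE; adjusted p = 0.61). No member of the list differed past the threshold between the lines under either treatment. The list median was -0.21 without 35S::ERF104 flg22 replicate 1. Members at an unadjusted p under 0.05 numbered 1 without erf104 flg22 replicate 3 and 8 without erf104 water replicate 3. Adding the left-out array turned the median to 0.09.

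4CL5 (AT3G21230), a 4-coumarate ligase outside that list, had 1136, 1252 and 704 in 35S::ERF104 flg22 and 266, 306 and 271 in 35S::ERF104 water, against 3178 and 3086 in erf104 flg22 and 183, 243 and 386 in erf104 water. It rose 3.56-fold in 35S::ERF104 and 12.14-fold in erf104. The lines differed under flg22 by -1.65 (adjusted p = 0.0099) and under water by 0.12 (adjusted p = 0.9).

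Tryptophan, camalexin and indole glucosinolate genes went the other way in part. These enzymes make tryptophan and turn it into sulphur-containing defence compounds, and MYB51 and MYB34 are transcription factors of the pathway. Of 21 measured genes 13 rose in 35S::ERF104 and 9 in erf104, and MYB34 fell in both lines. The list's median difference was 0.10, with 7 members positive at an unadjusted p under 0.05 (CYP71A13, MYB51, IGMT2, CYP79B2, SOT16, ASA1 and SUR1) and 1 negative (MYB34). These 8 are 38.1% of the list, against 6.59% of all probe sets. CYP71A13 was called absent in 3 of the 4 groups, and its signals were 79.4 or lower. None passed the adjusted threshold. The 7 positive members became 3 without 35S::ERF104 water replicate 2 and 0 in the fit of 23 arrays. The list median was -0.03 without 35S::ERF104 water replicate 2, and 0.89 with the left-out array added.

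MYB51 (AT1G18570) had signals of 2483, 2927 and 4138 in 35S::ERF104 flg22 and 629, 495 and 1061 in 35S::ERF104 water, against 172 and 266 in erf104 flg22 and 143, 91.4 and 289 in erf104 water. Every 35S::ERF104 array, treated or not, was above every erf104 array. It rose 4.50-fold in 35S::ERF104 (adjusted p = 0.000816), and in erf104 the change was 0.46 log2 units (adjusted p = 0.548). The difference was 1.71 ± 0.55 (SE; adjusted p = 0.64).

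IGMT2, a methyltransferase that modifies indole glucosinolates, had 4663, 3621 and 4777 in 35S::ERF104 flg22 and 760, 718 and 929 in 35S::ERF104 water, against 362 and 391 in erf104 flg22 and 167, 123 and 262 in erf104 water. It rose 5.42-fold in 35S::ERF104 and 2.15-fold in erf104. The IGMT genes are near-identical neighbours, and probes for one may also detect another. IGMT1 went the other way, with a difference of -1.48 that lay between -2.37 and -0.07 without single arrays and did not pass. It had 1620, 1235 and 3211 in 35S::ERF104 flg22 and 385, 396 and 740 in 35S::ERF104 water. In erf104 it had 271 and 178 under flg22 and 2.91, 41.7 and 71.4 under water. CYP79B2, which makes the first indole intermediate, had 1532, 1438 and 2272 in 35S::ERF104 flg22 and 1031, 751 and 1140 in 35S::ERF104 water, against 829 and 600 in erf104 flg22 and 1174, 720 and 690 in erf104 water. It rose in 35S::ERF104 (0.83, adjusted p = 0.0265), while its erf104 arrays overlapped.

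CYP81F2 differed between the lines under both treatments. This cytochrome P450, which prepares indole glucosinolates for methylation, had 16149, 11763 and 17230 in 35S::ERF104 flg22 and 2262, 1727 and 4368 in 35S::ERF104 water, against 1737 and 1761 in erf104 flg22 and 281, 89.9 and 493 in erf104 water. It rose 5.77-fold in 35S::ERF104 and 7.54-fold in erf104, and the difference was -0.39 (interval -1.85 to 1.07). Its level was higher in 35S::ERF104 by 3.09 log2 units under flg22 and by 3.47 under water, both past the threshold.

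**Figure D5:**
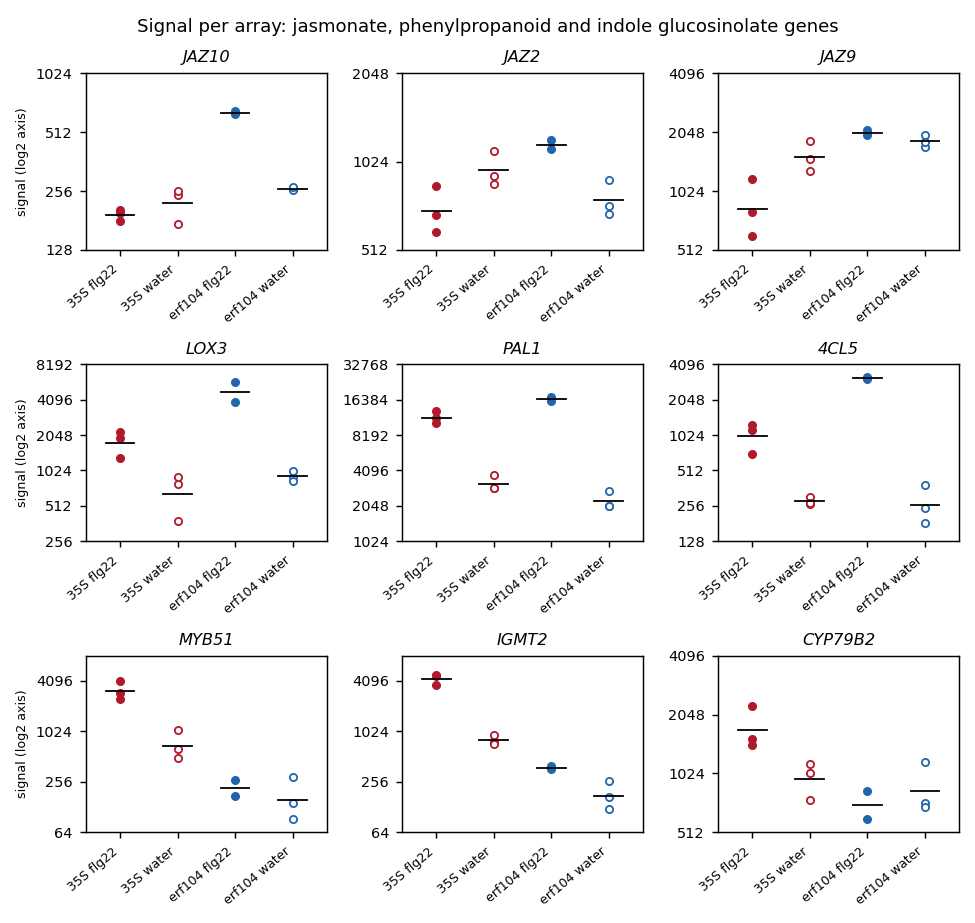
Signal per array on a log2 axis for 3 jasmonate genes and LOX3, PAL1 and 4CL5, and 3 indole glucosinolate genes, marked as filled for flg22 and open for water, red for 35S::ERF104 (left) and blue for erf104 (right); bars are means of log2 signals. JAZ10 and 4CL5 are highest in erf104 flg22, and MYB51 and IGMT2 are highest in 35S::ERF104 flg22.

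Levels differed between the lines past the threshold for 251 probe sets under flg22, 183 higher in 35S::ERF104 (0.805%) and 68 lower (0.299%), and for 89 under water, 74 higher (0.325%) and 15 lower (0.0659%). These comparisons share arrays with the difference of responses. Leaving out single arrays moved the counts to between 78 (without erf104 flg22 replicate 3) and 373 (without erf104 water replicate 1) under flg22. Under water they ranged from 18 (without 35S::ERF104 water replicate 1) to 412 (without erf104 water replicate 3). The defensin genes PDF1.2a and PDF1.2b, ERF targets with a GCC box, were far higher in 35S::ERF104 in both treatments. PDF1.2a had 27032, 17286 and 25626 in 35S::ERF104 flg22 and 24227, 14022 and 28479 in 35S::ERF104 water, against 163 and 60.7 in erf104 flg22 and 7.81, 288 and 70.8 in erf104 water. All 35S::ERF104 arrays were above all erf104 arrays, and the treatments overlapped in each line. Both erf104 groups held arrays called absent, so the size of the difference is imprecise. It was fitted at 7.85 ± 0.95 log2 units under flg22 and 8.62 ± 0.85 under water (SE), while the flg22 response was 0.10 in 35S::ERF104 and 0.88 in erf104, neither past the threshold. PDF1.2b, whose probe set is of a kind that can cross-hybridise, differed by 7.92 and 7.96, also with erf104 arrays called absent. PR4, a chitin-binding protein, had 1542, 1049 and 1792 in 35S::ERF104 flg22 and 567, 471 and 1352 in 35S::ERF104 water, against 226 and 179 in erf104 flg22 and 216, 191 and 178 in erf104 water. It rose in 35S::ERF104 (1.00, adjusted p = 0.044) and changed by 0.05 in erf104, and the difference of 0.95 ± 0.47 did not pass.

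Over the 13 ethylene and jasmonate defence outputs the median difference was 0.49, with 9 positive and 4 negative. HCHIB and THI2.2 had an unadjusted p under 0.05 (15.4%, against 6.59% of all probe sets). HCHIB, a chitinase, had the largest at 4.16, and every group was called absent for it. For ethylene itself, ACS2 and ACS7, synthases of the ethylene precursor, rose in both lines, by 1.89 and 3.69 in 35S::ERF104 and by 2.49 and 3.17 in erf104. ACS6, a substrate of MPK6, rose in 35S::ERF104 (1.65, adjusted p = 0.0056) and changed by 1.06 in erf104 (adjusted p = 0.1). Its difference of 0.59 did not pass and ranged from 0.02 to 1.15 without single arrays. The biosynthesis list of 13, of which 6 were called absent in all 4 groups, had a median difference of -0.18. That median was 0.47 without 35S::ERF104 water replicate 2 and -0.53 without 35S::ERF104 water replicate 3. Over the 12 perception and signalling genes it was -0.27, where EIL1, a transcription factor of ethylene signalling, fell in 35S::ERF104 (-1.01). Of 15 group IX ERF genes, ERF104 itself included, ERF5 rose and ERF2 fell in 35S::ERF104, and 1 fell in erf104. Called absent in all 4 groups were 3 of them. At an unadjusted p under 0.05, 1 was positive and 1 negative (13.3%, against 6.59% of all probe sets). The list median of 0.21 turned to -0.16 without 35S::ERF104 water replicate 2 and to -0.30 with the left-out array. The median of 7 repressor ERF genes was 0.25, and 0.00 without 35S::ERF104 water replicate 1.

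The salicylic acid list of 18 had a median difference of -0.36. At an unadjusted p under 0.05 there were 4 members (22.2%, against 6.59% of all probe sets), all negative, namely NIMIN1, PR1, NPR4 and TGA3. Over alternatives that kept all 18 genes, the 12-array fit aside, such negative members numbered 0 to 4. The median lay between -0.57 and -0.22 over the same alternatives. PR1, a marker of salicylic acid defence, had 49.1, 62.2 and 88.3 in 35S::ERF104 flg22 and 119, 75.6 and 99 in 35S::ERF104 water, against 107 and 143 in erf104 flg22 and 79.9, 68.3 and 68 in erf104 water. These signals are low, some arrays were called absent in 3 groups, and neither response passed.

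In the remaining lists 1 array often set the direction. The median difference was 0.01 over 22 nuclear photosynthesis genes, but -0.29 without erf104 water replicate 1, 0.30 without erf104 water replicate 3 and 0.60 with the left-out array. Their median response was -0.68 in 35S::ERF104 and -0.69 in erf104, and none had an unadjusted p under 0.05. The median difference was -0.24 over 16 abscisic acid and cold genes, of which COR47 fell by 1.54 in 35S::ERF104 and by 1.25 in erf104. It was 0.26 over 29 auxin and cell expansion genes. EXPA1, IAA3 and EXPA3 were positive at an unadjusted p under 0.05 (10.3% of the list, against 6.59% of all probe sets). The wall-loosening expansin EXPA1 rose in 35S::ERF104 (0.96) and changed by -0.15 in erf104. Of 9 clock genes, LHY and ELF3 were negative (-1.68 and -0.99) and ELF4 positive (0.81) at an unadjusted p under 0.05. Those 3 are 33.3% of the list, against 6.59% of all probe sets. The clock median was -0.45, between -0.65 and -0.24 over alternatives other than the 12-array fit. ELF3, a component of the evening complex, fell in 35S::ERF104 (-0.88, adjusted p = 0.00737) and changed by 0.11 in erf104. The median was -0.30 over 12 heat shock genes. HSP17.6A, a small heat shock protein, was their sole member at that p (-1.30), or 8.33%, near the share of all probe sets. It was 0.17 over 12 flavonoid genes and -0.23 over 8 senescence genes. Marker lists gave -0.22 for guard cells (12), -0.19 for vascular tissue (9), -0.28 for trichomes (6) and -0.40 for root and flower (9), with none of these members at an unadjusted p under 0.05. Called absent in all 4 groups were 4 guard cell, 1 vascular, 4 trichome and 6 root and flower markers, so these medians rest partly on signals below detection. The sign of the flavonoid, senescence, guard cell, trichome and root and flower medians turned in at least 1 fit without a single array.

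Among probe sets that match 1 gene and were called present or marginal in at least 2 groups, the 10 smallest p-values in each direction, rps12.1 aside, are given by rule, and none of them passed. On the positive side stood AT1G64710, AT5G25240, AT3G15680, AT1G63220, MC8, IGMT4, AKN2, CRF5, CAM2 and AT3G08640. AT1G64710, an alcohol dehydrogenase-like gene, had 4047, 2509 and 4902 in 35S::ERF104 flg22 and 1121, 1043 and 1704 in 35S::ERF104 water, against 276 and 260 in erf104 flg22, where it was called absent, and 379, 250 and 471 in erf104 water. It rose in 35S::ERF104 and overlapped in erf104, with a difference of 1.95 ± 0.40 (adjusted p = 0.496). It passed with the replicate number as a block (adjusted p = 0.0133, limma). AKN2, an adenylylsulphate kinase that supplies activated sulphate, had 7073, 4853 and 4893 in 35S::ERF104 flg22 and 1969, 1505 and 2563 in 35S::ERF104 water, against 2232 and 1689 in erf104 flg22 and 2590, 2147 and 1461 in erf104 water. It rose in 35S::ERF104 (1.49) and changed by -0.05 in erf104. MC8, a metacaspase, rose 9.89-fold in 35S::ERF104 and changed 1.61-fold in erf104 without passing there.

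On the negative side stood RAD52-2, EX1, SBT3.5, KLCR2, JAZ10, AT4G01870, AT2G29500, 4CL5, PRP2 and PPDK. RAD52-2, a DNA repair protein, had 826, 1041 and 961 in 35S::ERF104 flg22 and 518, 582 and 658 in 35S::ERF104 water, against 1967 and 1830 in erf104 flg22 and 524, 551 and 496 in erf104 water. It rose 1.61-fold in 35S::ERF104 and 3.63-fold in erf104, with a difference of -1.17 ± 0.22 (adjusted p = 0.466). SBT3.5, a subtilisin-like protease, had 359, 417 and 403 in 35S::ERF104 flg22 and 323, 385 and 201 in 35S::ERF104 water, against 1118 and 1617 in erf104 flg22 and 283, 298 and 322 in erf104 water. It rose 4.47-fold in erf104, and the 35S::ERF104 treatments overlapped. EX1, the plastid protein EXECUTER1, fell in 35S::ERF104 (-1.21) and changed by 0.09 in erf104.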

How the data were processed

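In the authors' deposited value table, each array has a linear intensity for every probe set, and the mean after trimming 2% at each end was 500 to 500.1 on the 11 arrays. The summarisation step is not stated in any label or header. Detection calls, held per group in a column of other content, and gene loci come from the authors' table, made with Genespring GX 7.3.1 per the series text. Signals were log2 transformed here without pseudocount or filter. Group means were fitted with limma 3.58.1 under R 4.3.3 (7 residual degrees of freedom, intensity-trended prior), with Benjamini-Hochberg adjustment over 22746 probe sets at 0.05. SE are limma's moderated errors, and the number of arrays limits the precision. The brightest probe set matching 1 gene stood for that gene, and 359 of 392 genes of 25 lists were measured, named through RefSeq symbols. Responsive genes came from Col-0 and mpk6 arrays only. The code was tested on simulated arrays.

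A fixed set of genes was always named (ERF104, MPK6, FRK1, ACS6, WRKY33, PR1 and both PDF1.2 copies). To it came all calls, the 10 smallest p-values per direction, the largest difference per direction in a list, and 5 per direction among responsive genes. Others were added after their values were seen, among them list members at an unadjusted p under 0.05. The comparison, lists and members were chosen with earlier results of these data known. Alternatives were other normalizations, priors, filters, array sets, a replicate block, leaving out each array and a plain ANOVA.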

Additional observations from a re-analysis of the deposited data

Results flagged for a closer look

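The difference of flg22 responses passed a test of the difference itself for rps12.1, at -2.35 log2 units (35S::ERF104 minus erf104). It was the sole probe set to do so, and the call was lost in most fits that left out an array.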

How the results depend on the processing

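Counts past the threshold are given for the difference of responses, which was 1, the responses in 35S::ERF104 (3534) and erf104 (3404), and the differences between lines under flg22 (251) and water (89). The difference of responses gave 2 calls after quantile normalization and with array weights. It gave 0 with median centring, without the prior trend, with either filter on dim probe sets, with a pseudocount of 50, in the 12-array and 23-array limma fits and with the methods' ANOVA after Benjamini-Hochberg, where 344 to 1519 had an unadjusted p under 0.05. Without the trend there were 2003 calls in erf104, 29 between lines under flg22 and 8 under water. Array weights gave 492 under flg22 and 220 under water. With erf104 flg22 replicate 2 added (12 arrays), calls numbered 167 in 35S::ERF104, 366 in erf104, 19 under flg22 and 7 under water. With all genotypes (23 arrays) they numbered 860, 672, 20 and 5 in the same order. The methods' ANOVA gave 29 under flg22 and 2 under water after adjustment. Unadjusted and over 3-fold it gave 489 for the difference of responses, 1048 in 35S::ERF104, 1238 in erf104, 605 under flg22 and 486 under water. The erf104 response fitted on its own arrays gave 2209. Without single arrays, the counts were 0 to 3 for the difference of responses, 2586 to 4197 in 35S::ERF104, 1488 to 3966 in erf104, 78 to 373 under flg22 and 18 to 412 under water. The cause of these shifts was not tested.

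With the replicate block there were 2 calls for the difference of responses, 356 between lines under flg22 and 190 under water. Without it they numbered 1, 251 and 89. Deviations of same-numbered arrays correlated positively in all 15 pairs, at r of 0.016 to 0.283 and over 0.1 in 8. Differently numbered pairs reached 0.176. Deviations were taken from group means, so the 2 erf104 flg22 arrays mirror each other (0.283 and -0.283 with 35S::ERF104 flg22 replicate 1). The pairs are therefore not independent. The labels give replicate numbers without saying that they pair the samples, so the main fit has no block. As a hint from the data, 9 of 11 arrays correlated best with an array of their own number. Of 2982 alternative values for 132 named genes, 2897 kept their direction and 85 changed it. AT1G64710 passed with the replicate block (adjusted p = 0.0133, limma), and IGMT4 passed without erf104 water replicate 1 (adjusted p = 0.00727).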

Other observations

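Probe sets named for plastid photosynthesis genes, such as psbB and ndhC, were looked at because rps12.1 had passed, so the set was chosen after values were seen and carries no test. Of 40, 39 were called in all 4 groups. Their median flg22 response was -0.35 in 35S::ERF104 and -0.35 in erf104. The correlation of the responses across them was -0.16. It was 0.809 over all probe sets called in all 4 groups and 0.382 over all probe sets. Within the 25 gene lists it ranged from -0.71 (clock) to 0.91 (pattern receptors and early kinases), with 0.20 for nuclear photosynthesis genes. At an unadjusted p under 0.05, 7 of the 40 had a lower and 4 a higher response in 35S::ERF104, which is 27.5% of the set against 6.59% of all. The photosystem genes psbB, psbD and psaA differed by -1.67, -1.37 and -1.93, and ndhC and psbJ by 1.19 and 0.82. The median difference of the set was -0.07, and it was -0.25 without erf104 water replicate 1 and 0.23 without erf104 water replicate 3. Those arrays had the highest and the lowest mesophyll marker sums of their group, 210000 and 79500, and their part in these values was not tested. The 22 nuclear photosynthesis genes moved with the same arrays, to -0.29 and 0.30 from a median of 0.01.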
